A study of Drosophila melanogaster with 21 samples.

Results

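The late state of Drosophila S2 cells after knockdown of CoVa was described from 6 of the 21 arrays in the series, namely the 3 arrays of cells transfected with interfering RNA against CoVa and the 3 arrays of cells transfected with interfering RNA against GFP, all collected at 168 hr, the last time point. The arrays were chosen by the condition and hour in their titles, and each CoVa array was matched to the GFP array of the same experiment (experiments 1, 2 and 3). The series asked how the nucleus responds when the electron transport chain is attenuated, and measured total RNA on Affymetrix Drosophila Genome 2 arrays at several times after transfection by calcium phosphate. S2 cells, which were kept in Schneider's medium, are an established embryonic line with blood cell character, and flies carry no GFP gene, so the GFP arrays show transfection without a cellular target. The study treats the 3 experiments as independent time courses, whereas the labels call them replicates. It describes an interfering RNA against 1 CoVa sequence, so effects on other targets cannot be told apart from those of CoVa loss.

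CoVa encodes subunit Va of cytochrome c oxidase, complex IV, which passes electrons to oxygen at the end of the electron transport chain. When the chain slows, cells can draw ATP from glycolysis, with lactate dehydrogenase returning NADH to NAD+, and the nucleus can respond through stress pathways such as the one around the transcription factor ATF4. S2 cells also resemble plasmatocytes, the phagocytic blood cells of the fly, and express matrix proteins, integrins and immune genes.

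The CoVa transcript, annotated as COX5A on chromosome arm 3R, had signal intensities of 2278, 804 and 3841 in CoVa RNAi cells of experiments 1, 2 and 3, against 8413, 8962 and 7060 in GFP controls. No CoVa RNAi array reached the level of a GFP array, but the knockdown was uneven, with the deepest loss in experiment 2 and the shallowest in experiment 3. The log2 fold change was -2.06 (SE 0.41, adjusted p = 0.00369), and the decrease averaged 69.8% ± 22.9 (SD, n = 3). The log2 fold change was -1.37 without experiment 2 and -2.65 without experiment 3, past the threshold in both cases. Fold changes here and below are of log2(signal + 32), CoVa over GFP RNAi, from a limma fit with the experiment as a block. The fit took in the 20 CoVa and GFP arrays of all times, which share the estimate of spread behind each SE and p-value. An adjusted p under 0.05 counts as past the threshold. A fit that leaves out experiment 2 or 3 has few arrays to estimate the spread, so a call lost there need not mean a smaller effect.

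The median signal was 81.6, 81.5 and 94.4 on the CoVa arrays of experiments 1, 2 and 3, against 73.7, 74.1 and 89.1 on the GFP arrays, and between 44.1% and 49.0% of probesets had a signal of 100 or more. The CoVa array was thus the brighter one in 3 of 3 experiments. A signal below 100 was treated as near background, and a fold against such a group is given as "at least", taken against 100. The 3' to 5' signal ratio of the actin control lay between 1.71 and 2.03 on CoVa arrays and between 1.69 and 1.81 on GFP arrays. That of GAPDH lay between 1.25 and 1.38 on CoVa arrays and between 1.38 and 1.55 on GFP arrays. The eIF-4a control reached the highest ratios, between 1.99 and 2.56 on CoVa arrays and between 2.26 and 2.98 on GFP arrays. In RNA from whole cultures, fewer cells of a kind and less RNA per cell cannot be told apart.

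At 168 hr a large share of the transcriptome differed between CoVa RNAi cells and GFP controls, in both directions. Of 9858 probesets tested, 1843 (18.7%) passed as higher after CoVa RNAi and 1443 (14.6%) as lower, 33.3% in all. With a change of at least 2-fold added as a criterion, 287 (2.91%) were higher and 157 (1.59%) lower, and these stood for 234 and 121 named genes. Increases of at least 2 on the log2 scale were found for 50 probesets and decreases of that size for 20. In 274 of the 287 higher and 140 of the 157 lower probesets the CoVa and GFP arrays did not overlap. Such separation is favoured by the selection, which used these same arrays. Over all probesets tested 22.7% did not overlap with CoVa higher and 18.2% with CoVa lower. The GFP mean was under 100 for 90 of the 287, and the CoVa mean was under 100 for 63 of the 157.

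The balance of increases and decreases depended on how the arrays were scaled. The median log2 fold change of all probesets was 0.06 as deposited, -0.01 after quantile normalization and -0.05 after scaling each array to a common median, and the share of increases among the calls was 56.1%, 44.9% and 36.1% in these 3 cases. None of the calls changed direction under either scaling, and of the 2-fold calls 283 and 156 stayed past the threshold after quantile normalization. The counts at 2-fold were 238 higher and 187 lower after quantile normalization and 223 higher and 206 lower with a common median. Changes well under 0.1 on the log2 scale are therefore not read as directions below.

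**Figure D1:**
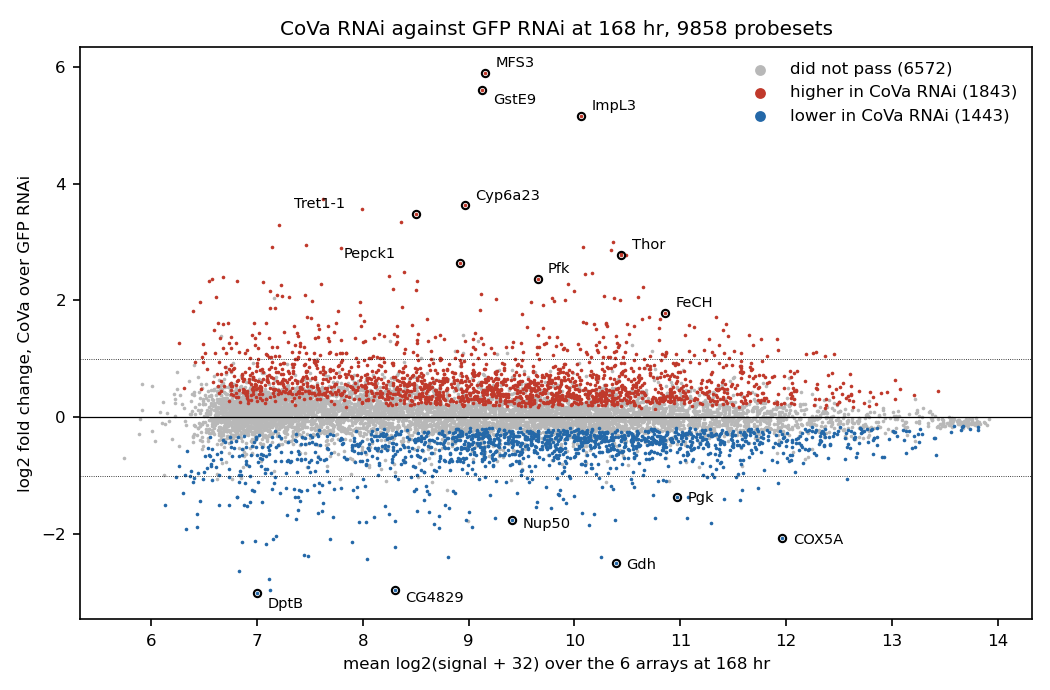
Log2 fold change of CoVa over GFP RNAi at 168 hr (vertical axis) against the mean log2(signal + 32) of the 6 arrays (horizontal axis), for 9858 probesets, with 1843 higher in red, 1443 lower in blue and those that did not pass in grey. Dotted lines mark 2-fold, and the named genes reach 5.89 (MFS3) at the top and -3.00 (DptB) at the bottom.

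Each experiment carried the response. The log2 differences of the matched arrays correlated across probesets with r = 0.867 (rho = 0.82) between experiments 1 and 2, r = 0.766 (rho = 0.691) between experiments 1 and 3 and r = 0.792 (rho = 0.739) between experiments 2 and 3, as a description over 9858 probesets, which are not independent and share their arrays. Differences of at least 2-fold numbered 286 higher and 159 lower in experiment 1, 375 higher and 218 lower in experiment 2, and 370 higher and 191 lower in experiment 3. The shallow CoVa knockdown of experiment 3 thus stood beside counts close to those of experiment 2, and that relation was not tested. Of the 3286 calls, 3274 had the same sign in 3 of 3 experiments, as did 69.1% of all probesets tested. The calls were made on these same arrays, so their agreement in sign is largely given by the selection. Without the block for experiment the calls dropped to 901 higher and 733 lower, and without experiment 2 to 1224 higher and 775 lower.

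**Figure D2:**
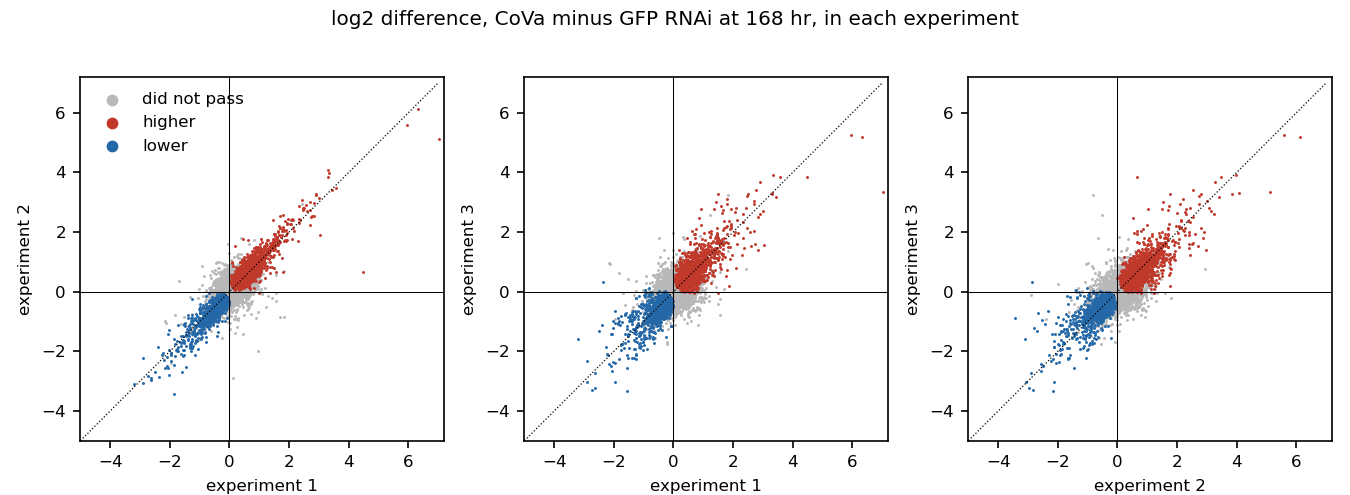
Log2 difference, CoVa minus GFP RNAi at 168 hr, of each probeset in one experiment (horizontal axis) against another (vertical axis), one panel per pair of experiments, with calls in red (higher) and blue (lower) and the dotted line at equality. The points follow the line most closely for experiments 1 and 2 (r = 0.867).

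The increases were led by MFS3 and GstE9. MFS3, a member of the major facilitator superfamily of transporters, had signals of 4064, 3850 and 5322 in CoVa RNAi cells, against 18.9, 23.1 and 114 in GFP controls. It was near background in GFP controls of experiments 1 and 2 and just above 100 in experiment 3, and far higher in every CoVa RNAi culture, a difference of at least 44.1-fold (log2 5.89, SE 0.52, adjusted p = 3.18e-05). GstE9, a glutathione transferase of the epsilon class, had 3515, 3326 and 4987 in CoVa RNAi cells, against 24.8, 37.3 and 99.9 in GFP controls. Its CoVa arrays all exceeded its GFP arrays, by at least 39.4-fold (log2 5.60, SE 0.25, adjusted p = 1.71e-06), and another of its probesets, brighter in GFP controls, gave a log2 fold change of 2.91.

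Lactate dehydrogenase stood beside them. Its probeset, named ImpL3 through the study's own list of changed probesets because the array annotation used here gives it no gene, had 5358, 7367 and 6434 in CoVa RNAi cells, against 9.60, 180 and 611 in GFP controls. The GFP level differed widely between experiments while the CoVa level did not, and the arrays did not overlap (log2 5.16, SE 0.64, adjusted p = 2.16e-04; log2 4.23 without experiment 1 and 6.07 without experiment 3). Thor, the translation repressor 4E-BP, was named the same way and rose by 2.78 on the log2 scale, with 2627, 6579 and 2744 in CoVa RNAi cells, against 380, 966 and 331 in GFP controls. In both conditions Thor was highest in experiment 2. Genes named through that list were selected there for a difference over these arrays, so a pass is not independent evidence for them.

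Sugar transport and gluconeogenesis were also represented among the leading genes. Tret1-1, a trehalose transporter of the cell surface, had 692, 1363 and 1728 in CoVa RNAi cells, against 41.1, 64.3 and 148 in GFP controls, at least 12.6-fold higher (log2 3.49, SE 0.18, adjusted p = 2.16e-06). Pepck1, phosphoenolpyruvate carboxykinase, had 875, 1492 and 1228 in CoVa RNAi cells, against 94.3, 229 and 189 in GFP controls. Both genes were higher in every CoVa array than in any GFP array, and Pepck1 rose by 2.63 on the log2 scale (SE 0.20, adjusted p = 1.41e-05).

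Of the cytochrome P450 monooxygenases, Cyp6a23 had 1455, 2097 and 1676 in CoVa RNAi cells, against 94.0, 158 and 87.8 in GFP controls, a log2 increase of 3.63 (SE 0.22, adjusted p = 3.84e-06). Cyp28d1, of the same family, rose at least 5.96-fold (log2 2.90). JhI-26, named for its induction by juvenile hormone, had 3568, 4172 and 3444 in CoVa RNAi cells, against 628, 466 and 465 in GFP controls, and CG30022 had 3028, 3579 and 3872 in CoVa RNAi cells, against 508, 482 and 368 in GFP controls. Both were already well above background in GFP controls, and their log2 increases were 2.78 and 2.87. Genes near background in GFP controls made up much of the rest: CG5646 (at least 7.12-fold), CG10126 (at least 9.73-fold), CG4630 (at least 10.1-fold), the septin Septin4 (at least 4.50-fold), c(2)M, a component of the meiotic chromosome axis (at least 4.93-fold), and the integrin alpha subunit ItgaPS4 (at least 3.85-fold). CG31675 rose by 2.48 on the log2 scale.

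**Figure D3:**
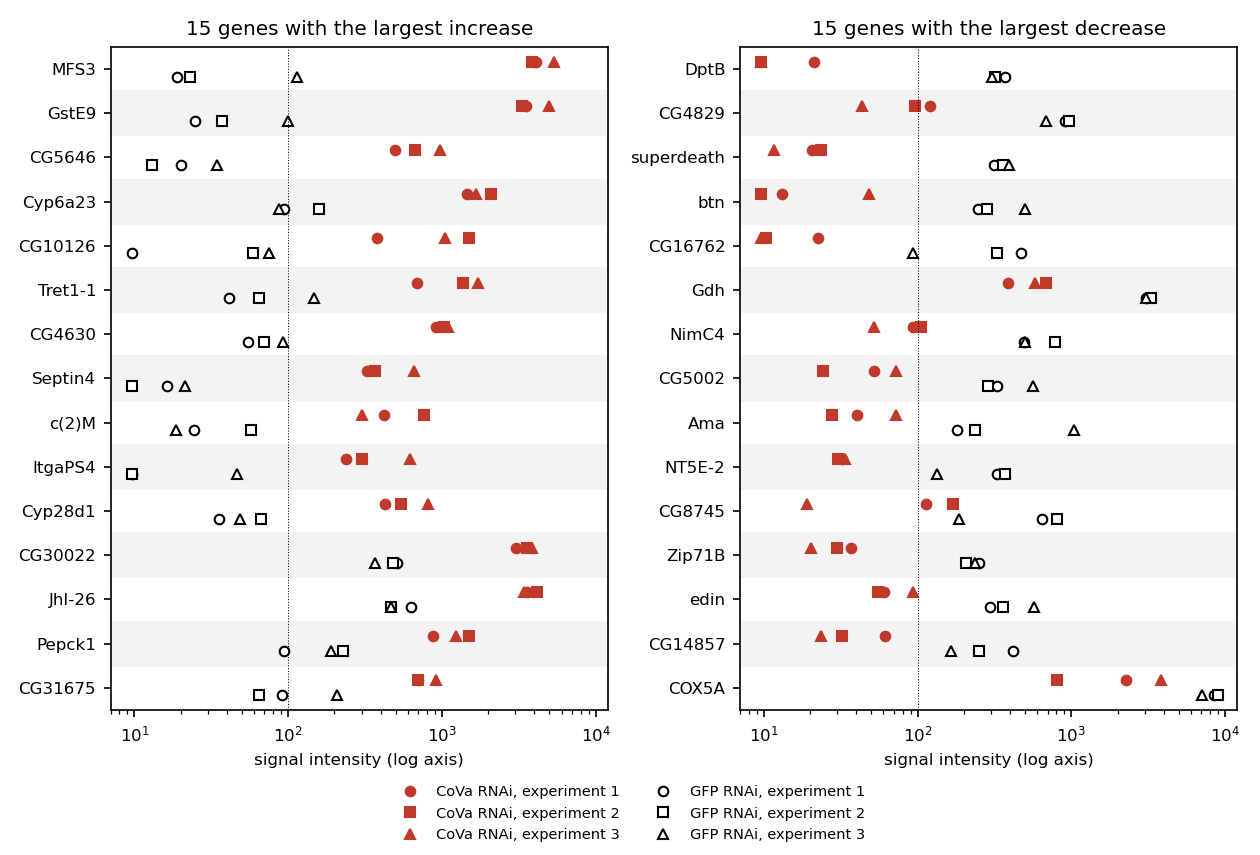
Signal intensity (horizontal log axis) on each of the 6 arrays at 168 hr for the 15 genes with the largest increase (left) and the 15 with the largest decrease (right), CoVa RNAi in filled red above GFP RNAi in open symbols, with a symbol for each experiment and a dotted line at 100. CoVa and GFP arrays do not overlap for any of the 30 genes, and many stand under 100 in one condition. The genes were picked by their change on these same arrays, which favours such separation.

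Glutamate dehydrogenase led the decreases among genes well above background in both conditions. Gdh, which links glutamate to the tricarboxylic acid (TCA) cycle, had 387, 683 and 578 in CoVa RNAi cells, against 3081, 3314 and 3059 in GFP controls, so that the level in GFP controls was nearly constant and every CoVa array lay far under it. The log2 fold change was -2.49 (SE 0.15, adjusted p = 3.74e-06). CG4829, a predicted gamma-glutamyl transferase, had 120, 95.5 and 43.5 in CoVa RNAi cells, against 909, 970 and 684 in GFP controls, at least 8.54-fold lower (log2 -2.95, SE 0.32, adjusted p = 9.74e-05).

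Some of the leading decreases were genes known from blood cells and immunity. DptB, the antibacterial peptide Diptericin B of the Imd pathway, had 21.3, 9.60 and 9.60 in CoVa RNAi cells, the last pair at the lowest value the arrays give, against 369, 319 and 306 in GFP controls. The difference was at least 3.31-fold (log2 -3.00, SE 0.44, adjusted p = 6.10e-04). NimC4, a receptor for apoptotic cells on phagocytes, had 93.4, 106 and 51.7 in CoVa RNAi cells, against 492, 781 and 496 in GFP controls, at least 5.90-fold lower. The infection-responsive gene edin was at least 4.09-fold lower, and NT5E-2, an ecto-5'-nucleotidase that releases adenosine, at least 2.77-fold lower. Ama, a secreted adhesion protein of the immunoglobulin family, was uneven in GFP controls, with 40.2, 27.6 and 72.9 in CoVa RNAi cells, against 180, 237 and 1037 in GFP controls.

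The remaining leading decreases ended near background in CoVa RNAi cells. They comprised superdeath (at least 3.57-fold), the homeobox gene btn (at least 3.42-fold), CG16762 (at least 2.98-fold), CG5002 (at least 3.91-fold), the zinc transporter Zip71B (at least 2.31-fold) and CG14857 (at least 2.77-fold). CG8745 fell by 2.12 on the log2 scale, with 113, 170 and 19.1 in CoVa RNAi cells, against 645, 806 and 186 in GFP controls. It was low in experiment 3 in both conditions, and it did not pass without the block (adjusted p = 0.178).

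To place these genes in pathways, lists of genes were counted with 1 probeset per gene, among 7399 genes of which 19.9% were higher and 16.2% lower. Lists are described by their counts and medians, beside a median of 0.06 on the log2 scale over all genes.

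**Figure D4:**
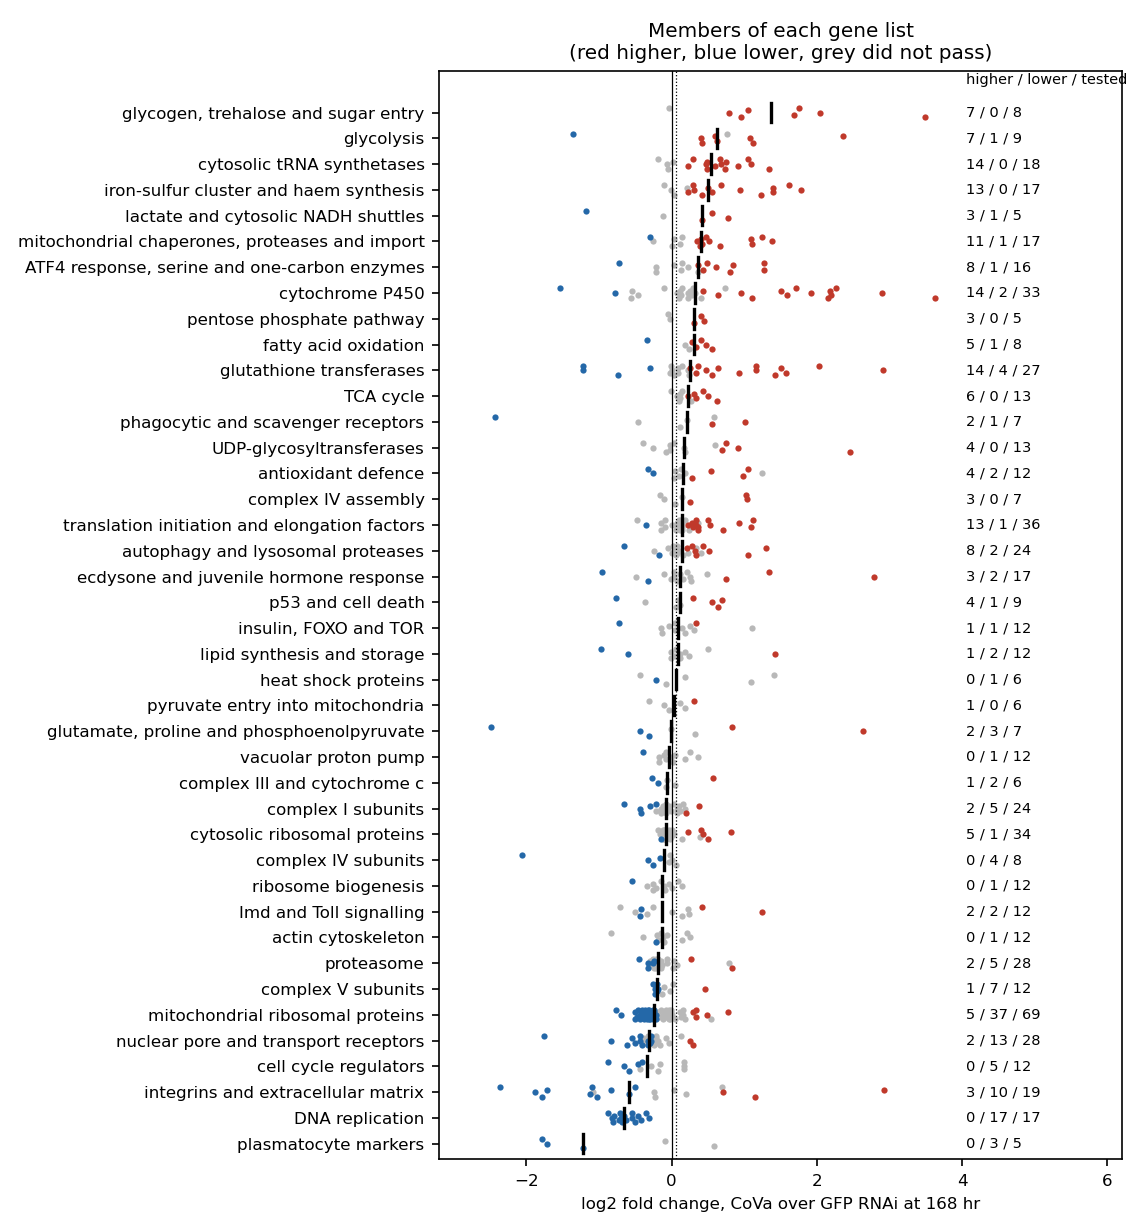
Log2 fold change of CoVa over GFP RNAi at 168 hr (horizontal axis) for the members of each list with at least 5 tested genes, ordered by the list median (black bar), with calls in red (higher) and blue (lower), the dotted line at the median of all genes and the counts at the right. Sugar entry has the highest median (1.37) and the plasmatocyte markers the lowest (-1.22), and all 17 replication genes lie below 0.

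Sugar handling rose as a group, with 1 enzyme moving sharply the other way. The list held 12 glycolytic enzymes, of which 10 had a named probeset and 9 were kept for testing. Of these 9, 7 rose, 1 fell and 1 did not pass (median 0.63). The study itself singled out glycolysis on these samples, so the direction of this list is not independent evidence. Phosphofructokinase, Pfk, the committed step, had 1750, 1659 and 1981 in CoVa RNAi cells, against 323, 280 and 369 in GFP controls, a log2 increase of 2.36 (SE 0.13, adjusted p = 2.96e-06). Pgi, upstream of it, and Tpi, the triosephosphate isomerase, rose by 1.12 and 1.08. Phosphoglycerate kinase, Pgk, the first ATP-yielding step, was the member that fell, with 1078, 1412 and 1193 in CoVa RNAi cells, against 3179, 3005 and 3327 in GFP controls (log2 -1.35, SE 0.09, adjusted p = 5.04e-06). Arrays of the 2 conditions did not overlap for Pfk or Pgk. The study reports that CG9961, a neighbour of Pgk with a similar sequence, rises after CoVa knockdown, and takes it to serve that step. Its values are not given here, so the phosphoglycerate kinase step as a whole is not described. Hex-A, a hexokinase, was higher by 0.76, which did not pass (adjusted p = 0.059; 0.00581 from the 6 arrays at 168 hr alone).

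Genes that store, release and import sugar rose as well. Of 8 genes for glycogen, trehalose and sugar entry, 7 rose and none fell (median 1.37), and the largest increases after Tret1-1 were those of the glycogen phosphorylase Glyp, the phosphoglucomutase Pgm1 and the transporter Tret1-2. Glyp had 1847, 1591 and 1836 in CoVa RNAi cells, against 464, 380 and 370 in GFP controls (log2 2.04, SE 0.13, adjusted p = 4.91e-06). Pgm1, which passes glucose between glycogen and glycolysis, had 1294, 1334 and 1298 in CoVa RNAi cells, against 447, 387 and 274 in GFP controls (log2 1.76, SE 0.13). The glycogen-building enzymes Glys and AGBE also rose, by 0.79 and 1.05. In the pentose phosphate pathway 3 of 5 genes rose and none fell (median 0.31), by at most 0.45 (CG8036), with 1 higher without experiment 2.

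In the list of genes around lactate and the cytosolic NADH shuttles, 3 of 5 rose and 1 fell. The aspartate aminotransferase Got1 rose by 0.78, and the malic enzyme Men, kept in that list though not itself a shuttle enzyme, by 0.56. Glycerol-3-phosphate dehydrogenase, Gpdh1, which feeds a cytosolic NADH shuttle, fell to 880, 790 and 825 in CoVa RNAi cells, against 2290, 2099 and 1481 in GFP controls (log2 -1.18, SE 0.10, adjusted p = 3.14e-05).

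Transcripts of the TCA cycle changed little. Of 13 TCA genes 6 rose and none fell (median 0.22), the largest increase being 0.62 for Idh3b, a subunit of isocitrate dehydrogenase, and 1 of them passed without experiment 2 and 3 with a common median. Of 6 genes for pyruvate entry 1 passed, muc, a subunit of the pyruvate dehydrogenase complex (0.31), which did not pass without experiment 2 (adjusted p = 0.13) or with a common median (adjusted p = 0.118). In contrast to these, the list of 7 glutamate, proline and phosphoenolpyruvate genes held both extremes, Gdh and Pepck1, with 2 higher and 3 lower (1 lower without experiment 2), and P5CDh1, a proline-degrading enzyme, rose by 0.83. Of 8 fatty acid oxidation genes 5 rose and 1 fell, with yip2, a thiolase, highest (0.55), and 2 rose without experiment 2 and 3 with a common median.

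Nuclear genes for the respiratory chain other than CoVa shifted by small amounts. Of 8 complex IV subunits 4 fell and none rose, and after CoVa the largest decreases were those of COX7A (-0.33) and COX8 (-0.25). COX7A had 6119, 5982 and 5006 in CoVa RNAi cells, against 7812, 7143 and 6574 in GFP controls. Without experiment 2 the log2 fold changes of COX7A and COX8 were -0.37 and -0.23, close to those of the full fit. Neither passed in that smaller fit. Of 24 complex I subunits 2 rose, 5 fell and 17 did not pass, with ND-B14 lowest (log2 -0.65, SE 0.07, adjusted p = 9.70e-05), and without experiment 2 none rose and 1 fell, whereas 11 fell with a common median. In complex III and cytochrome c UQCR-11 rose (0.57) while UQCR-Q (-0.27) and UQCR-6.4 (-0.18) fell, out of 6 genes, and none of these calls held without the block or after quantile normalization. For complex V, 7 of 12 subunits fell by at most 0.25, and this number was 0 after quantile normalization, 1 without the block and 0 without experiment 2 or without experiment 3. Of 7 assembly factors of complex IV 3 rose, none fell and 4 did not pass (median 0.14; 2 higher and 2 lower with a common median). CG3803, the fly member of the Cox15 family, had 1739, 1835 and 1886 in CoVa RNAi cells, against 912, 891 and 804 in GFP controls (log2 1.04, SE 0.09, adjusted p = 2.22e-05). Ttc19, known as a complex III factor and kept in that list, rose by 1.02.

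Many mitochondrial ribosomal protein genes were lower. Of 69 37 fell, 5 rose and 27 did not pass, with a median of -0.24 and a lowest value of -0.76 for mRpL14, which had 3320, 2662 and 2860 in CoVa RNAi cells, against 5051, 4557 and 5359 in GFP controls. mRpL28 went the other way (log2 0.78). The number that fell was 14 without the block, 4 without experiment 2 and 14 without experiment 3, against 37 after quantile normalization.

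Mitochondrial quality control genes rose. Of 17 chaperones, proteases and import factors 11 rose and 1 fell (median 0.40; 7 rose without experiment 2). The subunits of the inner membrane m-AAA protease were foremost: Spg7 had 1347, 1612 and 1373 in CoVa RNAi cells, against 559, 524 and 518 in GFP controls (log2 1.38, SE 0.12, adjusted p = 2.58e-05), and Afg3l2 rose by 1.24. The matrix protease Lon rose by 1.10 and the AAA protein bor by 1.11. The member that fell was ttm50, an inner membrane import factor (-0.30), which did not pass without experiment 2 or without experiment 3 (adjusted p = 0.113 and 0.066).

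Synthesis of iron-sulfur clusters and haem, the cofactors of the respiratory chain, rose over most of its steps. Of 17 genes 13 rose and none fell (median 0.50), with 8 higher without the block and 8 without experiment 2. Ferrochelatase, FeCH, which inserts iron into haem, had 3246, 3661 and 3342 in CoVa RNAi cells, against 940, 947 and 1023 in GFP controls (log2 1.78, SE 0.09, adjusted p = 1.71e-06). Alas, the first enzyme of haem synthesis, and Nfs1, the cysteine desulfurase that supplies sulfur, each rose by 1.39, and the ferredoxin Fdx1 by 1.61. For FeCH and Nfs1 every CoVa array was above every GFP array. The remaining 4 did not pass, among them the frataxin gene.

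The cytosolic aminoacyl-tRNA synthetases rose together. Of 18 tested, 14 rose and none fell (median 0.55), and TrpRS had 3695, 4213 and 3848 in CoVa RNAi cells, against 1454, 1605 and 1517 in GFP controls (log2 1.34, SE 0.06, adjusted p = 1.71e-06). GlyRS followed with 1.10, ValRS with 1.05 and LeuRS with 0.92. In the list of ATF4 response, serine and one-carbon genes 8 of 16 rose and 1 fell (median 0.36). Irbp18, a CCAAT/enhancer-binding partner of ATF4, and Ire1, a sensor of unfolded protein in the endoplasmic reticulum, each rose by 1.27. PPP1R15, a phosphatase subunit that restores eIF2, rose by 0.84, and PEK, a kinase of eIF2, by 0.81. Sesn was the member that fell (-0.73), with overlapping arrays (adjusted p = 0.238 without the block).

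Translation factors of the same circuit were among the genes that rose. Of 36 initiation and elongation factors 13 rose and 1 fell (median 0.14), with 7 higher without the block, 7 with a common median and 6 without experiment 2. eIF2Bgamma, a subunit of the exchange factor of eIF2, had 1517, 1561 and 1719 in CoVa RNAi cells, against 739, 656 and 759 in GFP controls (log2 1.12, SE 0.06, adjusted p = 2.19e-06). eIF2D rose by 1.09 and eIF2Bdelta by 0.93. Of 34 cytosolic ribosomal proteins 5 rose, led by RpS28a (0.82), a copy of a ribosomal protein gene whose reading can include its near-identical relative, and 1 fell. With a common median 4 rose and 15 fell, so no direction is given for this group. The proteasome had 2 of 28 subunits higher and 5 lower, with 15 lower under a common median and none lower without experiment 2.

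Enzymes that modify foreign and oxidised compounds rose in part. Of 27 glutathione transferases 14 rose and 4 fell (median 0.25; 9 and 2 without experiment 2). GstD5 had 1106, 1120 and 1412 in CoVa RNAi cells, against 325, 322 and 186 in GFP controls (log2 2.03, SE 0.28, adjusted p = 3.97e-04), and GstD9 rose by 1.50. GstS1 fell at least 1.83-fold, and GstD7 fell by 1.22 with overlapping arrays (adjusted p = 0.658 without the block and 0.0596 without experiment 1). Members of this family and of the P450s are similar in sequence, and probes of one gene can also capture another.

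Of 33 P450 genes tested, out of 81 on the array, 14 rose and 2 fell (median 0.32), 11 of them at least 2-fold higher (15 rose and 4 fell without experiment 2, 16 and 5 without experiment 3). Beyond Cyp6a23 and Cyp28d1, Cyp6a9 had 361, 674 and 1049 in CoVa RNAi cells, against 75.0, 104 and 178 in GFP controls (log2 2.20, SE 0.14, adjusted p = 5.93e-06). Cyp310a1 fell by 1.54 and did not pass without the block (adjusted p = 0.158). Of 13 UDP-glycosyltransferases, which attach sugars to small molecules, 4 rose and none fell, and 1 rose without the block. Ugt302C1 had 1926, 2346 and 3591 in CoVa RNAi cells, against 420, 411 and 480 in GFP controls (log2 2.45, SE 0.17).

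Antioxidant genes gave a mixed picture. Of 12 tested 4 rose and 2 fell (2 rose with a common median, and none fell without the block), with increases of ref(2)P (1.05), the fly p62, and Keap1 (0.98), the inhibitor of the transcription factor cnc. The cnc transcript itself had 2110, 2451 and 2250 in CoVa RNAi cells, against 822, 909 and 1120 in GFP controls. The arrays did not overlap, but the log2 fold change of 1.24 did not pass (SE 0.48, adjusted p = 0.0742). In a fit of the 6 arrays at 168 hr alone it passed (adjusted p = 0.00292). The manganese superoxide dismutase Sod2 fell by 0.33, with overlapping arrays, and did not pass without experiment 2 (adjusted p = 0.0844).

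The hypoxia regulator sima, the fly Hif alpha, gave a similar result. It had 804, 916 and 678 in CoVa RNAi cells, against 455, 468 and 403 in GFP controls, and although the arrays did not overlap, its log2 fold change of 0.80 did not pass (SE 0.33, adjusted p = 0.0849). From the 6 arrays at 168 hr alone the adjusted p was 0.00363, and it was 0.011 without experiment 2 and 0.00625 without experiment 3. Hph, the prolyl hydroxylase that marks sima for degradation, rose by 0.66 (SE 0.10, adjusted p = 8.74e-04; 0.256 without the block). Vhl and tgo, the other members of the pathway tested, did not pass. In insulin, FOXO and TOR signalling REPTOR-BP rose (0.34) and Sesn fell (-0.73) out of 12 genes, neither of them past the threshold without the block, and InR, the insulin receptor, stood 1.11 above GFP controls on the log2 scale without passing (adjusted p = 0.061; 0.00897 from the 6 arrays alone).

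Stress and death genes changed in part. Of 9 genes around p53 and cell death 4 rose, namely p53 (0.70), the initiator caspase Dronc (0.64), the effector caspase Dcp-1 (0.55) and the ubiquitin ligase subunit ago (0.29; adjusted p = 0.118 without the block, 0.106 without experiment 1 and 0.16 without experiment 2), while egr, the fly tumour necrosis factor, fell (-0.76; adjusted p = 0.054 without experiment 1). Of 24 autophagy and lysosomal genes 8 rose and 2 fell (4 and 1 without the block or without experiment 2), and the kinase Atg1, which starts autophagy, rose by 1.30 (SE 0.22, adjusted p = 0.00151). The lysosomal protease CtsL1 fell by 0.65. Of 6 heat shock proteins none rose and 1 fell, Hsc70-4 (-0.22, a call lost after quantile normalization and without experiment 2 or 3), and Hsp26 and Hsp27, at 1.41 and 1.10, had differences of opposite sign among experiments (adjusted p = 0.324 and 0.383); without experiment 2 they passed at 2.53 and 1.90.

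DNA replication was the list most uniform in direction. All 17 genes tested fell (median -0.65), between -0.87 for Mcm3 and -0.31 for RnrL, with 15 lower without the block and 12 without experiment 2. Mcm3, a subunit of the replicative helicase, had 862, 810 and 770 in CoVa RNAi cells, against 1468, 1614 and 1458 in GFP controls (SE 0.10, adjusted p = 1.23e-04). Mcm5 (-0.80), the origin recognition subunit Orc1 (-0.79) and the primase subunit Prim2 (-0.82) fell by similar amounts, and arrays did not overlap for any of the 4. The call of RnrL, the ribonucleotide reductase subunit, was lost without experiment 2 and without experiment 3 (adjusted p = 0.197 and 0.073), and none of the 17 changed 2-fold. Of 12 cell cycle regulators 5 fell and none rose (median -0.34), among them the S phase kinase Cdk2 (-0.88), the anaphase activator fzy (-0.65) and the mitotic kinase aurB (-0.59). His1, the linker histone, was named through the study's list and fell by 1.80 on one probeset and 2.21 on another.

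Nuclear pore genes fell in part with these. Of 28 pore proteins and transport receptors 13 fell and 2 rose (median -0.30), with 8 lower without the block, 3 without experiment 2 and 7 without experiment 3. Nup50 stood apart, with 405, 378 and 254 in CoVa RNAi cells, against 1121, 1232 and 1293 in GFP controls (log2 -1.75, SE 0.17, adjusted p = 4.40e-05). The next, Nup37, fell by 0.83.

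Hormone-responsive and lipid genes changed one by one, with counts near or below the shares over all genes (19.9% higher and 16.2% lower). Of 17 genes of the ecdysone and juvenile hormone response 3 rose and 2 fell (median 0.12; 6 and 4 without experiment 3). After JhI-26 the largest increase was that of JhI-21, an amino acid transporter subunit, with 5291, 5688 and 5558 in CoVa RNAi cells, against 1959, 2040 and 2516 in GFP controls (log2 1.34, SE 0.10, adjusted p = 1.41e-05). In lipid synthesis and storage 1 of 12 genes rose and 2 fell. Hmgs, the hydroxymethylglutaryl-CoA synthase of the mevalonate pathway, had 4514, 5406 and 5816 in CoVa RNAi cells, against 1694, 1898 and 2256 in GFP controls (log2 1.42), and mdy, the diacylglycerol acyltransferase that makes storage fat, fell by 0.97. Of 12 genes each for the actin cytoskeleton, ribosome biogenesis and the vacuolar proton pump, 1 per list fell and none rose, namely tsr, the fly cofilin (-0.21), pit, a DEAD-box helicase (-0.54), and the pump subunit Vha16-4 (-0.40). With a common median 2, 5 and 2 genes of these lists fell. Without experiment 2 the log2 fold changes of tsr, pit and Vha16-4 were -0.19, -0.50 and -0.53, and their calls were lost. The actin control probesets, which were left out of the test, read lower on every CoVa array than on any GFP array. The one at the 3' end had 4771, 4299 and 5309 in CoVa RNAi cells, against 7021, 6244 and 7987 in GFP controls.

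Matrix and adhesion genes fell while a few integrin subunits rose. Of 19 genes tested 10 fell and 3 rose (median -0.59), 7 of them at least 2-fold lower. The integrin alpha subunit if had 313, 233 and 188 in CoVa RNAi cells, against 989, 987 and 930 in GFP controls (log2 -1.88, SE 0.20, adjusted p = 7.92e-05). The collagen IV chain Col4a1 had 142, 118 and 160 in CoVa RNAi cells, against 542, 506 and 619 in GFP controls (log2 -1.78, SE 0.16, adjusted p = 3.26e-05). Opposite to these were ItgaPS4 (2.92) and the beta subunit Itgbn (1.15), with 1552, 1565 and 2142 in CoVa RNAi cells, against 726, 602 and 1025 in GFP controls. The alpha and beta subunits that rose and the alpha subunit that fell were thus separated on every array.

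Single immune genes went both ways, with counts for Imd and Toll genes near the shares over all genes (19.9% higher and 16.2% lower). Of 3 antimicrobial peptide genes tested, out of 6 on the array, DptB fell and Drs, the antifungal Drosomycin, rose, with 154, 318 and 119 in CoVa RNAi cells, against 43.9, 73.2 and 69.6 in GFP controls. Of 12 Imd and Toll genes 2 rose and 2 fell (1 and 1 without experiment 2, 3 and 5 without experiment 3), with PGRP-LE, an intracellular sensor of bacterial peptidoglycan, at least 1.63-fold higher. Among 7 phagocytic receptors, NimC4 fell while drpr (1.01) and crq (0.56), receptors for cell corpses, rose. The arrays of drpr overlapped, and it did not pass without the block (adjusted p = 0.351).

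Cell type markers were read for the identity of the cultures. The blood cell factor srp was strong on all 6 arrays (2358, 2377 and 2635 in CoVa RNAi cells, against 2398, 2702 and 2740 in GFP controls), whereas the plasmatocyte markers Hml and NimC1 stayed under 100 on all 6. The summed signal of the 7 plasmatocyte markers was 3205 to 6514 in CoVa RNAi cells and 4207 to 10540 in GFP controls. Of the 5 tested 3 fell, Col4a1, Pxn (-1.72) and Nplp2 (-1.22), and for Pxn and Nplp2 the experiments differed more than the conditions. Pxn had 991, 418 and 50.4 in CoVa RNAi cells, against 2253, 1955 and 267 in GFP controls, and did not pass without the block (adjusted p = 0.458). Nplp2 had 2315, 1127 and 205 in CoVa RNAi cells, against 4823, 3362 and 465 in GFP controls. It did not pass without the block either (adjusted p = 0.596). Both Pxn and Nplp2 were lower after CoVa RNAi within each experiment, whereas Col4a1 alone passed without the block. The marker eater went the other way in 3 of 3 experiments and did not pass (log2 0.59). It had 648, 726 and 66.6 in CoVa RNAi cells, against 471, 496 and 24.6 in GFP controls. In the fit of the 6 arrays at 168 hr with the block, 1 plasmatocyte marker passed as higher.

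Of 4 lamellocyte markers PPO3 and ItgaPS4 rose, while msn did not pass and atilla, the surface marker of these cells, stayed under 100 on every array. PPO3 had 393, 491 and 588 in CoVa RNAi cells, against 150, 165 and 183 in GFP controls (log2 1.39, SE 0.14, adjusted p = 5.33e-05). The sum of this list was 3970 to 4340 in CoVa RNAi cells and 3870 to 4245 in GFP controls. Under 100 on all 6 arrays were 3 of the 4 crystal cell markers and 4 of the 5 fat body markers. The same held for 1 of 3 neuron, 1 of 2 muscle and 1 of 2 germline markers. Others were well expressed in both conditions. The muscle marker Mlc2 had 2667, 3424 and 3651 in CoVa RNAi cells, against 2159, 1418 and 3405 in GFP controls. For the germline marker bam these were 1870, 2048 and 2608, against 2571, 2740 and 4378. For the neuron marker elav they were 498, 518 and 482, against 389, 440 and 374. Of the 6 markers tested from these 5 lists 2 rose, by at most 0.36 and not past the threshold without the block, and the germline marker bam fell (-0.54; adjusted p = 0.321 without the block). The part of other cell types in the results above was not tested.

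Finally, the late effect was set against the effect at 72 hr, the first time with more than 1 matched pair, to ask which changes belong to the late state. The CoVa effect at 168 hr exceeded that at 72 hr for 415 probesets (4.21%) and was below it for 342 (3.47%), by the contrast of the 2 effects in the same fit. The contrast shares the 168 hr arrays with the late effect itself. Because 72 hr was measured in experiments 2 and 3 alone, these counts rest on few arrays. They were 20 and 7 without experiment 2, 174 and 61 without experiment 3, and 104 and 61 without the block. With a common median they were 248 and 707, so that the balance of the 2 directions turned round.

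The 5 leading increases, which were chosen by their effect at 168 hr and so are not an independent sample for this contrast, all passed it. MFS3 stood at a log2 value of 0.76 at 72 hr and of 5.89 at 168 hr (difference 5.13, SE 0.83, adjusted p = 0.00664), and Cyp6a23 had 0.17 and 3.63 (difference 3.46, SE 0.35, adjusted p = 8.50e-04). GstE9, CG5646 and CG10126 had differences of 4.16, 3.44 and 3.09. Among the leading decreases DptB had -0.30 at 72 hr and -3.00 at 168 hr (difference -2.70, SE 0.70, adjusted p = 0.0437), and the difference of CG4829 was -2.27. For superdeath, btn and CG16762, which had log2 fold changes of -1.52, -1.04 and -1.03 at 72 hr, the difference did not pass.

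**Figure D5:**
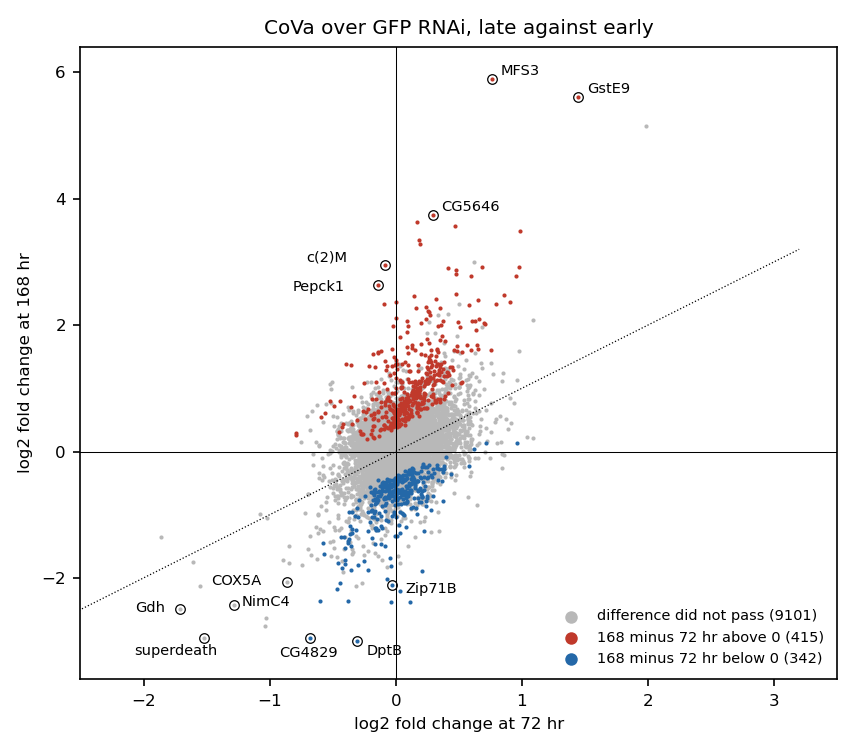
Log2 fold change of CoVa over GFP RNAi at 168 hr (vertical axis) against that at 72 hr (horizontal axis) for 9858 probesets, with those whose 2 effects differed in red (415, above 0) and blue (342, below 0) and the dotted line at equality. MFS3, GstE9 and CG5646 lie far above the line, while Gdh, with -1.71 at 72 hr and -2.49 at 168 hr, lies closer to it.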

How the data were processed

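The values were taken as deposited, as a linear signal intensity per probeset. Before deposit the authors took the scans from Affymetrix's operating software (GCOS) and scaled every array in dChip to the one of median brightness; the labels also name MAS5. Control probesets (183) were left out, and 9858 of 18769 probesets, those at 100 or more on at least 3 of the 20 CoVa and GFP arrays, were kept. Genes were named from the platform annotation, with 7979 of the kept probesets given 1 gene and 11 further ones named from the study's own list. Where a gene has several probesets, list counts used the brightest.

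log2(signal + 32) was fitted in limma 3.58.1 (R 4.3.3) with 1 mean per condition and time over 20 arrays, the experiment as a block, eBayes, and p-values adjusted by Benjamini-Hochberg over the kept probesets (threshold 0.05; residual degrees of freedom 8). The contrasts were CoVa over GFP at 168 hr, and that effect minus the one at 72 hr. The pairing comes from the experiment number in the titles; deviations from the group means of same-numbered arrays correlated at 0.582, 0.596 and 0.709, and those of other pairs between -0.549 and 0.19. P-values measure the spread that remains after the experiment block, pooled over all times of the 3 experiments. The times of one experiment were treated as independent given the block. The number of experiments limits the precision, as does the background for weak probesets. The fit was tested on simulated data. The members and lists were chosen with earlier results of these data known. Named genes are CoVa, sima, the markers, the 15 genes highest and the 15 lowest in log2 fold change that passed with 1 sign in 3 experiments, and in each list up to 4 members that passed with the largest change, plus up to 2 against its majority; other members are given by value, and ImpL3, Thor and His1 were chosen after their values were seen. Alternatives changed the block, arrays, scaling, value added, filter, eBayes settings and test, or left out an experiment. Leaving out experiment 2 or 3 takes the residual degrees of freedom far below 8. Sequences are not used here. Python 3.11.15 with numpy 2.4.6 and pandas 2.3.3 served for counts and plots.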

Additional observations from a re-analysis of the deposited data

Results flagged for a closer look

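The CoVa effect differed between 168 hr and 72 hr by a direct test of the difference, with 415 probesets above 0 and 342 below 0. The counts were 248 and 707 with a common median, and 20 and 7 without experiment 2. Among the 5 genes with the largest increase and the 5 with the largest decrease at 168 hr, the difference passed for MFS3 (5.13), GstE9 (4.16), Cyp6a23 (3.46), CG5646 (3.44), CG10126 (3.09), DptB (-2.70) and CG4829 (-2.27), all on the log2 scale. At 72 hr 2 experiments were measured, and at 168 hr 3.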

How the results depend on the processing

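The CoVa transcript passed under every alternative of the limma fit, with a log2 fold change between -1.37 and -2.65 when 1 experiment was left out. Counts at 168 hr (1843 higher and 1443 lower) were 901 and 733 with no replicate block, 1066 and 755 from the 6 arrays with no replicate block, 1188 higher with a common median, and between 1224 and 2366 higher and 775 and 1469 lower when 1 experiment was left out. The methods' t-test, on linear values of the 6 arrays, gave 1403 higher and 1211 lower at p under 0.05. After Benjamini-Hochberg adjustment it gave 64 higher and 41 lower. The study itself ran that test over all time points, with added criteria of fold and difference. The 2-fold counts stayed within 1.5 times of 287 and 157 under every alternative of the limma fit. The late minus early counts (415 and 342) were 104 and 61 with no replicate block, 234 above 0 after quantile normalization, 248 and 707 with a common median, 216 and 131 with no filter, 615 below 0 with the matched pairs as the replicate block, and between 20 and 333 above 0 and 7 and 297 below 0 when 1 experiment was left out. Of the genes named in the text, 119 of 139 kept their side of the threshold with no replicate block and none changed sign under any alternative. Log2 fold changes of genes near background depended on the value added, with DptB at -3.58 after adding 16 and -2.35 after adding 64, and CG5646 at 3.12 after adding 64. The low signal of such genes limits their folds. The cause of these changes was not tested.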

Other observations

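Genes outside the lists, several of them for mitochondrial proteins, also differed at 168 hr. They were chosen after their values were seen, and are given as log2 fold changes of CoVa over GFP RNAi. Alr, a sulfhydryl oxidase of the intermembrane space, had a mean signal of 1910 in CoVa RNAi cells and 449 in GFP controls (log2 2.01, SE 0.09). Tpc1, a carrier of thiamine pyrophosphate, averaged 2750 in CoVa RNAi cells and 658 in GFP controls (log2 2.00, SE 0.12), and Tspo, an outer membrane protein, 8148 in CoVa RNAi cells and 3803 in GFP controls (log2 1.09, SE 0.10). Naprt, which makes NAD+ from nicotinic acid, rose by 2.06 (SE 0.09). Each of these had the same sign in 3 of 3 experiments.

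Secreted proteins went both ways. The activin-like ligand daw averaged 2170 in CoVa RNAi cells and 459 in GFP controls (log2 2.28, SE 0.27), while Idgf2, a chitinase-like growth factor, averaged 2038 in CoVa RNAi cells and 4912 in GFP controls (log2 -1.24, SE 0.09). For these 6 genes the adjusted p-values of the limma fit across all kept probesets lay under the threshold. The 48 hr array of untransfected cells entered no comparison.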
